A study of Mus musculus with 9 samples.

Results

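Polysome-bound mRNA of mouse oocytes collected 4 h after hCG, at metaphase I (MI), was compared with that of germinal vesicle (GV) oocytes collected at 0 h. The 3 arrays titled MI and the 3 titled GV were taken by title, 6 of the 9 arrays of the series, and the other 3 held metaphase II (MII) eggs. Both groups came from mice given PMSG, a gonadotropin that drives follicle growth, 48 h before the time at which hCG, a stand-in for the ovulatory hormone surge, was given or would have been given. The labels name no strain, genotype or age, and give no count of oocytes or animals behind an array. They call the samples biological replicates without saying whether these came from separate mice, so p-values here measure only the spread between arrays, which may be technical. The titles, sources and stage fields of the 4 h samples say MI, while their description reads pGVB, an abbreviation that the labels leave unexplained.

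A fully grown oocyte makes almost no new RNA, and from the end of prophase arrest its proteins come from mRNA stored during growth. Many stored mRNAs have short poly(A) tails and carry few ribosomes. On resumption of meiosis some are given longer tails, through elements in their 3′ ends that bind the protein Cpeb1, and move onto polysomes, while others lose their tails and leave them. After hCG the nuclear envelope breaks down, chromosomes condense and the first spindle forms without centrosomes. The kinase Cdk1 with its cyclins drives this entry into M phase, and the anaphase-promoting complex, held back by the spindle checkpoint, later ends it. The comparison asks which mRNAs were higher or lower on polysomes in these first hours. A signal here depends on how much of an mRNA an oocyte held, on the share of it bound to polysomes and on how many oocytes gave material. Fewer cells and less RNA per cell cannot be told apart, and total RNA was not analysed here.

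The deposited values were intensities on a linear scale, and the 6 arrays were similar in depth of signal. Array medians lay between 12.4 and 13.2, with between 53.2% and 54.5% of probe sets below 16, near background. The 95th percentile was 1175 on MI 3 and between 1296 and 1463 on the other 5 arrays, so MI 3 had the dimmest upper range. Over clearly lit probe sets, 2 MI arrays differed by a median of 0.484 to 0.833 log2 units and 2 GV arrays by 0.582 to 0.643. A GV and an MI array differed by 0.526 to 0.856 (median of the 9 pairs 0.736), a range that overlaps both. Oocyte identity was clear: the 9 measured oocyte markers, among them Zp1, Zp2, Zp3, Gdf9 and Bmp15, summed to between 48640 and 59972 on every one of the 6 arrays. The 11 granulosa and cumulus markers summed to 127, 196 and 441 on the GV arrays and 488, 404 and 803 on the MI arrays, so they lay near background at both stages but were higher on 2 of the 3 MI arrays than on any GV array. Of these 11, 1 reached a mean of 100 and 1 lay below 16 on all 6 arrays. The sums of 4 theca and stroma markers were 72.1 to 452 in GV and 58.8 to 209 in MI. Those of 4 blood and immune markers were 41.1 to 63.4 and 66.8 to 154, and those of 3 endothelial markers 107 to 312 and 52.2 to 461, and 1 gene of each of these lists lay below 16 on all 6 arrays. Their part in the results that follow was not tested.

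No gene passed the test between GV and MI. On log2(intensity + 16), with the brightest probe set standing for each of 18193 genes, limma called 0 genes higher and 0 lower in MI at an adjusted p under 0.05, which is 0% in each direction. The smallest adjusted p was 0.178, and 1308 genes had an unadjusted p under 0.05, of which 681 were higher and 627 lower in MI. Sizes of change are therefore given as sizes, each with its interval, and no gene named here is called changed.

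By size, higher and lower genes were about equal in number. Array medians were similar, and how the deposited values had been scaled is unknown. The balance of counts is therefore relative to each array, and cannot show whether polysome-bound mRNA as a whole rose or fell. The median change over all genes was 0.0071 on the log2 scale, with quartiles of -0.29 and 0.31, and 50.9% of genes lay above 0. In 390 genes (2.14%) the change was at least 2-fold upward and all 3 MI arrays lay above all 3 GV arrays, and in 432 genes (2.37%) it was at least 2-fold downward with all 3 MI arrays below. Among the 7411 genes with a mean intensity of at least 100 over the 6 arrays, these counts were 250 (3.37%) and 322 (4.34%). A 4-fold difference with the stages apart was seen in 66 genes upward and 65 downward. The stages were apart at any size in 1168 genes upward (6.42%) and 1092 downward (6.002%). With an array left out, 2 arrays clear 3 more easily than 3 do, and the counts over all genes were 552 to 914 upward and 567 to 827 downward. Because 16 is added to each intensity before the logarithm, changes of genes near background are understated.

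**Figure D1:**
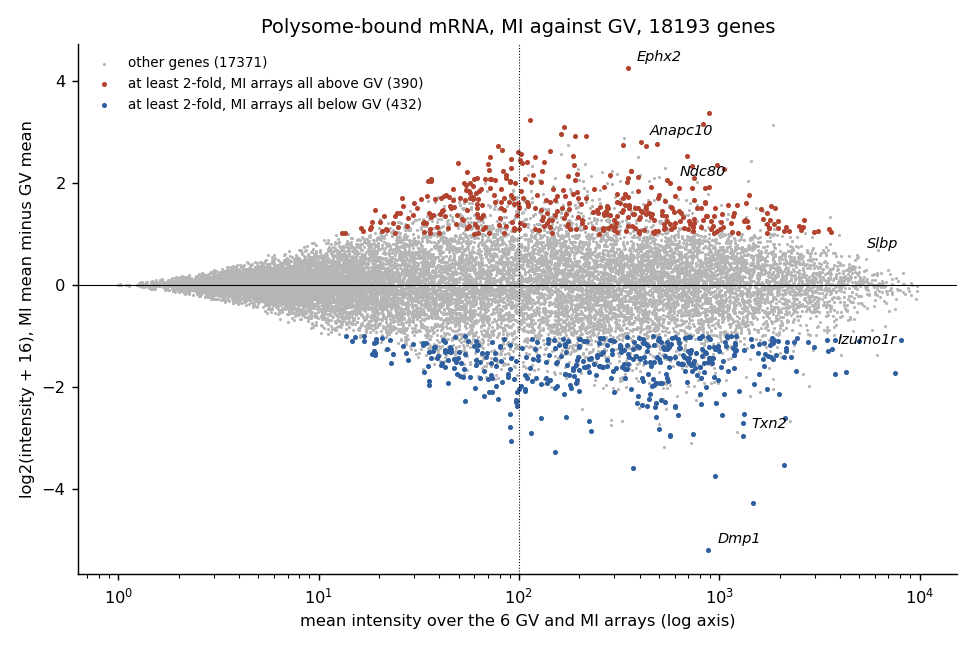
Each point is 1 of 18193 genes: the horizontal axis is the mean intensity over the 6 arrays on a log axis, with a dotted line at 100, and the vertical axis is the MI mean minus the GV mean of log2(intensity + 16). The 390 genes at least 2-fold higher with the stages apart (red) and the 432 lower (blue) lie on both sides of a cloud centred on 0, and large changes were rare above an intensity of 3000.

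How closely the arrays bounded a change depended on signal. For the 7411 genes with a mean of at least 100, the median half-width of the 95% interval of the change was 1.18 log2 units, so that an unchanged gene could typically be bounded only within slightly more than 2-fold either way. It was widest, 1.42, for genes of intensity 100 to 300, where the median size of the change was 0.54. At 1000 to 3000 the half-width was 0.90 and the median change 0.40, and at 3000 or more they were 0.72 and 0.22. The whole interval lay within 2-fold for 13.55% of genes at 16 to 100, for 4.69% of genes at 100 to 300, for 9.88% at 300 to 1000, for 24.04% at 1000 to 3000 and for 51.8% of the 407 genes at 3000 or more. Below 16 the share was 74.8%, in a range where the added 16 holds all values close together. For a gene of middling signal a missed threshold thus says little about the size of its change.

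**Figure D2:**
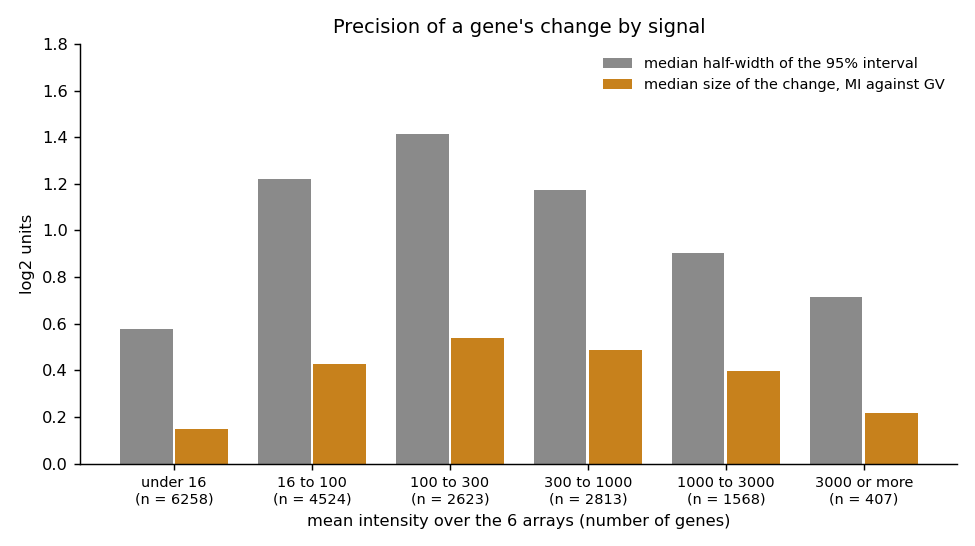
Bars give, for 6 ranges of mean intensity, the median half-width of a gene's 95% interval (grey) and the median size of its change between GV and MI (orange), both in log2 units. In every range the half-width is more than 2 times the size of the typical change.

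Genes of M phase and chromosome segregation lay above 0 more often than below. The median log2 level of each of their lists, taken per array, overlapped between the stages. For M-phase entry it was 10.08, 9.85 and 9.13 in GV and 10.04, 10.35 and 9.72 in MI. Its SD within a stage was 0.42 for M-phase entry, 0.37 for checkpoint and 0.19 each for kinetochore and spindle. Each SD exceeds the list's median change. All lists were chosen with earlier results of these data known, so their shares are not independent evidence. Of 25 measured regulators of M-phase entry, 18 lay above 0 with a median change of 0.25, beside 0.0071 for all genes, and 0 of 25 were past 2-fold with the stages apart, against 2.14% of all genes upward. Cdk1 itself read 5606, 2826 and 3687 in GV and 6534, 5497 and 2136 in MI, a change of 0.13 with overlapping stages and no stable sign (-0.18 without MI 1). Ccnb2, a cyclin that activates Cdk1, read 1521, 1329 and 2023 in GV and 2648, 1427 and 929 in MI (change -0.07, interval -0.97 to 0.83), and was 0.28 without MI 3. Both genes thus overlapped between the stages. Mastl, the kinase that holds the phosphatase PP2A in check during M phase, was higher on each MI array at the probe set used. It read 392, 297 and 480 in GV against 694, 829 and 625 in MI. Its change was 0.87 (SE 0.23, interval 0.34 to 1.39, adjusted p = 0.467). Another Mastl probe set, brighter over the GV and MI arrays, read 488, 494 and 691 in GV and 857, 600 and 805 in MI. Its change was 0.43 with overlapping stages, and a dimmer probe set gave -0.08, also with overlapping stages. Mos, the kinase upstream of the MAPK cascade that stabilises the meiotic spindle, read 1226, 987 and 576 in GV and 1385, 2017 and 1095 in MI (change 0.70, interval -0.12 to 1.52), with the lowest MI array inside the GV range.

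The spindle checkpoint and anaphase-promoting complex held 32 measured genes. Of these, 3 were at least 2-fold higher with the stages apart and 0 lower, 9.38% against 2.14% of all genes and 3.37% of those with clear signal. With MI 2 left out the count past 2-fold upward was 6. At any size 7 were apart upward and 0 downward, beside 6.42% and 6.002% of all genes. The median of the list was 0.14. Anapc10, a subunit of the complex that helps it recognise substrates, read 155, 102 and 35.1 in GV and 475, 696 and 967 in MI. Its change was 2.79 (SE 0.48, interval 1.68 to 3.91, adjusted p = 0.208), with a mean of 1859 on the MII arrays. Cdc27, a scaffold subunit of the same complex, read 1151, 583 and 736 in GV and 2216, 2149 and 1450 in MI, a change of 1.25 (interval 0.52 to 1.98). Other Cdc27 probe sets gave 1.29 with the stages apart, and 1.45 and 0.52 with overlapping stages. Fbxo5, the inhibitor of the complex also known as Emi1, read 933, 1128 and 553 in GV and 2559, 1714 and 1452 in MI, a change of 1.14 (interval 0.38 to 1.90). A subunit and an inhibitor of the complex were thus both higher on all MI arrays at their brightest probe sets. Of the 32 genes, 20 lay above 0 and 12 below. Those below include the subunits Cdc26 (-0.81), Anapc15 (-0.80) and Cdc16 (-0.59), with overlapping stages. Bub1b, the checkpoint kinase BubR1, read 1693, 1802 and 1890 in GV and 2698, 2028 and 2755 in MI, a change of 0.46 (interval -0.15 to 1.06) with the stages apart.

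Of 38 kinetochore and chromosomal passenger genes, 2 (5.26%) were past 2-fold upward with the stages apart and 0 downward, beside 2.14% and 2.37% of all genes and 3.37% and 4.34% of those with clear signal. With MI 3 left out the count upward was 5. The median of the list was 0.13. Ndc80, the microtubule-binding core of the outer kinetochore, read 234, 167 and 261 in GV and 1027, 954 and 780 in MI. Its change of 2.00 had an SE of 0.30 and an interval of 1.31 to 2.68 (adjusted p = 0.194), so the lower end of the interval was itself above 2-fold. Cenpc1, which ties the kinetochore to centromeric chromatin, read 132, 121 and 89.9 in GV and 461, 424 and 185 in MI (change 1.43). Of 45 genes of acentrosomal spindle assembly, 2 were past 2-fold upward with the stages apart and 0 downward, and the list's median was 0.10, or -0.07 with probe sets averaged. With MI 1 or MI 3 left out the count downward was 3. The 2 were Clasp2, a microtubule-stabilising protein, with 644, 502 and 310 in GV and 1337, 1368 and 825 in MI (change 1.27), and Nusap1, a spindle protein that bundles microtubules. Nusap1 read 944, 1135 and 1027 in GV and 2137, 2094 and 3001 in MI, a change of 1.19 (SE 0.27, interval 0.577 to 1.803, adjusted p = 0.353). For these 2 spindle genes the share, 4.44%, lies near that of all genes with clear signal, 3.37%. Of the 45, 25 lay above 0 and 20 below. At any size 7 had the stages apart upward and 3 downward. The largest changes of the list were downward, with overlapping stages: Tubg1 at -1.91, Haus7 at -1.45, Tubgcp3 at -1.32 and Haus2 at -1.29.

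Cdkn1b, the inhibitor of cyclin-dependent kinases known as p27, was among the most evenly replicated differences. It read 262, 183 and 329 in GV and 823, 779 and 840 in MI, with a change of 1.63 (SE 0.26, interval 1.02 to 2.24, adjusted p = 0.194). A separate probe set of the gene read 108, 78.9 and 35.9 in GV and 391, 263 and 269 in MI, a change of 1.91. Both probe sets placed every MI array above every GV array, and the MII mean at the brighter was 365.

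**Figure D3:**
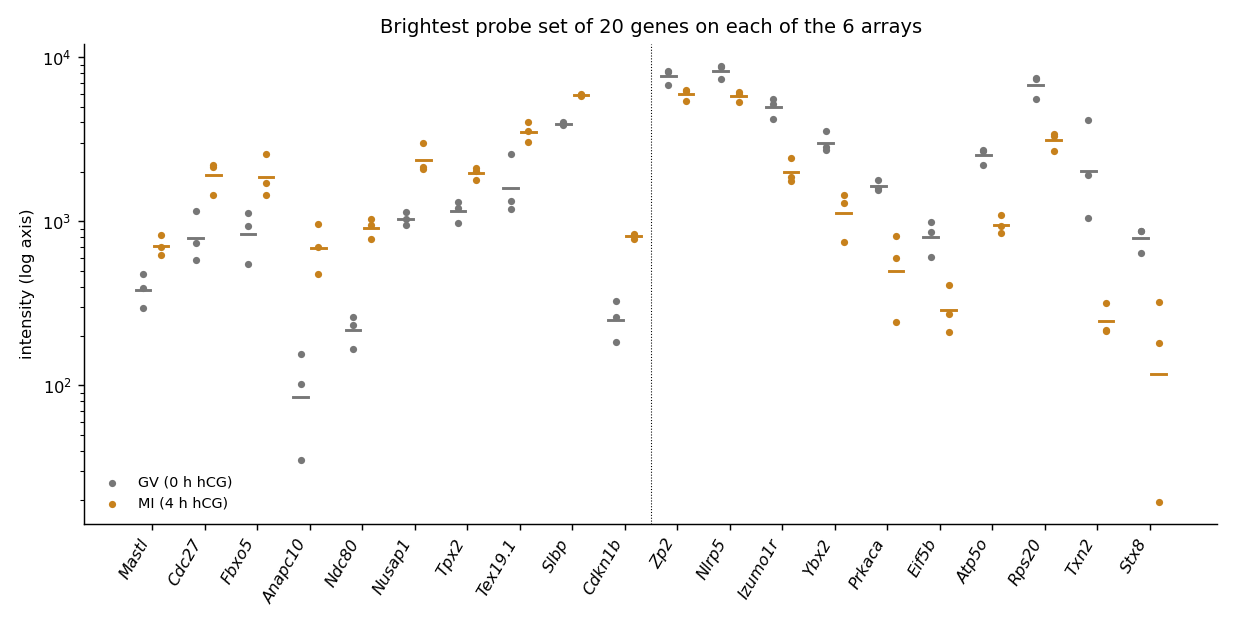
Points are the intensity of the brightest probe set on each of the 3 GV arrays (grey) and 3 MI arrays (orange), on a log axis, for 10 genes higher in MI (left of the dotted line) and 10 lower (right); bars mark each stage's mean on the log2(intensity + 16) scale. In each of the 20 genes the 3 points of a stage lie beyond the 3 of the other, with gaps that range from that of Zp2 to that of Txn2.

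Of the mRNAs described in textbooks as polyadenylated at maturation, none passed the test. All 8 measured genes lay above 0, with Plat at -0.0093 where the probe sets of a gene were averaged, 6 of the 8 had the stages apart, and the median change was 0.64 beside 0.0071 for all genes. Of the 8, 2 (25%) were past 2-fold with the stages apart, against 2.14% of all genes, and with GV 2, GV 3 or MI 1 left out the count was 1 of 8. Like the other lists, this one was chosen with earlier results of these data known, so its tallies add no independent evidence. This holds most directly for Dazl, Tpx2 and Tex19.1, which were put on it with those results in view. The tallies above include them: each had the stages apart, and Tex19.1 is 1 of the 2 past 2-fold. The other members, Plat, Hprt, Slbp, Mos and Spin1, had changes of 0.15, 1.12, 0.57, 0.70 and 0.22. Slbp, which binds the stem-loop of histone mRNA, was the most tightly measured, with 3916, 4025 and 3863 in GV and 5883, 5929 and 5790 in MI. Its change of 0.57 (SE 0.17, interval 0.19 to 0.96, adjusted p = 0.51) is small, but the gap between its highest GV and lowest MI array was wider than the range of the 3 arrays of either stage. Hprt, a purine salvage enzyme whose mRNA is a classic reporter of tail lengthening, read 476, 213 and 450 in GV and 953, 903 and 591 in MI (change 1.12, interval 0.34 to 1.90). Tex19.1, a germ cell protein, read 2579, 1321 and 1184 in GV and 4046, 3548 and 3034 in MI (change 1.14, interval 0.42 to 1.85). Tpx2, which nucleates spindle microtubules under the GTPase Ran, read 1314, 977 and 1199 in GV and 2111, 1774 and 2026 in MI (change 0.76, interval 0.27 to 1.25). A dimmer Tpx2 probe set read 266, 246 and 74.6 in GV and 374, 124 and 127 in MI, a change of 0.07 with overlapping stages. Plat, tissue plasminogen activator and the best known of these mRNAs, had the smallest change. It read 3097, 3474 and 3628 in GV and 3810, 4000 and 3508 in MI, a change of 0.15 (interval -0.27 to 0.57) with overlapping stages, so that a doubling by 4 h lies outside its interval.

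Among the factors that carry out cytoplasmic polyadenylation, 1 of 26 was past 2-fold upward with the stages apart and 1 downward, shares of 3.85% each, near those of genes with clear signal, with a list median of 0.28. Tent2, the cytoplasmic poly(A) polymerase also called Gld2, read 170, 144 and 86.4 in GV and 632, 347 and 207 in MI (change 1.37, interval 0.32 to 2.42). Cpsf1, a large subunit of the cleavage and polyadenylation specificity factor, read 195, 315 and 147 in GV and 127, 75.02 and 49.5 in MI (change -1.25, interval -2.19 to -0.30). Cpeb1, the element-binding protein, read 2527, 2204 and 2230 in GV and 3527, 2893 and 2734 in MI (change 0.39, interval -0.09 to 0.86), higher on each MI array. Dazl, a germ cell protein that promotes translation, read 908, 823 and 839 in GV and 992, 914 and 1433 in MI at its brightest probe set (change 0.35). At another it read 546, 208 and 533 in GV and 954, 1224 and 687 in MI, a change of 1.21, so the 2 probe sets shared the direction and the order of the stages but not the size.

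In the list of mRNA storage and decay, 23 of 35 genes lay above 0 (median 0.17), 0 were past 2-fold upward with the stages apart and 1 downward (2.86%, against 2.37%). That gene was Ybx2, the oocyte Y-box protein MSY2 that packages and stabilises stored mRNA. It read 3530, 2723 and 2842 in GV and 1449, 1290 and 747 in MI, a change of -1.42 (SE 0.31, interval -2.13 to -0.70, adjusted p = 0.353). The mRNA for a protein of mRNA storage was thus lower on all MI arrays. Btg4, the adaptor that brings the Ccr4-Not deadenylase to maternal mRNA, read 4912, 3637 and 2993 in GV and 5915, 5181 and 4122 in MI, a change of 0.41 (interval -0.15 to 0.98) with overlapping stages.

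By counts of members, the mRNAs of mitochondrial and cytoplasmic translation and of respiration leaned the other way. Per array, list medians overlapped between the stages for mitochondrial ribosomal proteins, respiration and translation factors. The first read 9.63, 9.11 and 9.43 in GV and 9.25, 9.53 and 8.71 in MI. Those of cytosolic ribosomal proteins were 11.85, 11.58 and 11.90 in GV and 11.45, 11.45 and 11.46 in MI. Their SD within a stage, 0.40, 0.57, 0.18 and 0.36 in that order, exceeded each list's median change. Of 75 mitochondrial ribosomal protein genes, 9 were at least 2-fold lower in MI with the stages apart and 0 higher, 12% against 2.37% of all genes downward, or 4.34% of those with clear signal. The median of the list was -0.14, with 44 of 75 below 0. Mrpl23 read 627, 491 and 1582 in GV and 114, 287 and 245 in MI (change -1.89, interval -3.24 to -0.53). Mrpl54 read 140, 120 and 467 in GV and 51.8, 43.6 and 35.5 in MI (change -1.87). Both encode proteins of the large subunit. Mrps9, of the small subunit, rested on 1 high GV array, with 1503, 6703 and 771 in GV and 705, 719 and 717 in MI (change -1.46). Other Mrps9 probe sets gave -1.45 and 0.33, both with overlapping stages. Mrps7, another small subunit protein, likewise had 1 high GV array, with 3206, 542 and 673 in GV and 266, 511 and 403 in MI (change -1.44). With the mean of all probe sets standing for a gene, 4 of the 75 met the same criteria in place of 9.

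Of 73 genes of the respiratory chain and ATP synthase, 12 had all MI arrays below all GV arrays and 0 had them above, beside 6.002% and 6.42% of all genes. Of the 73, 5 (6.85%) were also past 2-fold, beside 2.37% of all genes and 4.34% of those with clear signal, and with GV 2 left out the count was 8. The list's median of -0.18 depended on the dim array MI 3: without it the median was 0.04, while 7 members then met the 2-fold criteria. Atp5o, a stalk subunit of ATP synthase, was the most evenly measured, with 2670, 2215 and 2720 in GV and 845, 1087 and 935 in MI. Its change was -1.39 (SE 0.20, interval -1.87 to -0.92, adjusted p = 0.194), and a second probe set gave -1.33 with 3103, 2182 and 2844 against 973, 1086 and 1106. Ndufa6, an accessory subunit of complex I, read 4024, 3232 and 2717 in GV and 1570, 1039 and 1126 in MI (change -1.41, interval -2.19 to -0.63). Sdhb, the iron-sulfur subunit of complex II, read 3687, 1789 and 2018 in GV and 946, 1243 and 399 in MI (change -1.59, interval -3.34 to 0.17). Atp5g1, a gene for the rotor ring of ATP synthase, read 860, 985 and 1821 in GV and 302, 303 and 542 in MI (change -1.61).

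Of 49 translation initiation and elongation factors, 5 (10.2%) were past 2-fold downward with the stages apart and 1 (2.04%) upward, beside 2.37% and 2.14% of all genes and 4.34% and 3.37% of those with clear signal. The median was -0.05. Eif5b, the GTPase that joins the ribosomal subunits, was lower at 2 probe sets. The brighter read 994, 866 and 605 in GV and 211, 409 and 272 in MI (change -1.44, interval -2.28 to -0.60), and the other 962, 881 and 1047 in GV and 184, 152 and 183 in MI (change -2.37). Eif2b5, the catalytic subunit of the exchange factor for initiation factor eIF2, read 156, 112 and 108 in GV and 45.0, 53.1 and 13.2 in MI (change -1.49). Eif4ebp2, which sequesters the cap-binding protein, read 194, 374 and 401 in GV and 74.4, 53.1 and 175 in MI (change -1.61). Eif3h, a subunit of the initiation factor eIF3, read 1665, 1433 and 4943 in GV and 1319, 858 and 945 in MI, with a change of -1.14 and an interval of -2.39 to 0.10. At the brightest probe sets, both activators and a repressor of initiation were among the lower genes. The count downward was 2 with the mean of all probe sets, 3 with a pseudocount of 64 and 8 without MI 1.

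Cytosolic ribosomal proteins had a median of -0.21 over 45 genes with 31 below 0, or -0.13 with probe sets averaged, and 2 (4.44%) were past 2-fold downward with the stages apart, near the 4.34% of genes with clear signal. Without GV 2 or MI 1 the count was 4, and without MI 3 the median was -0.08. Rps20, of the small subunit, read 5551, 7355 and 7501 in GV and 2698, 3390 and 3295 in MI (change -1.11), and a second bright probe set gave -1.24. Rpl4, of the large subunit, read 7978, 3274 and 4411 in GV and 2249, 1915 and 2757 in MI (change -1.09). Rps25, the 1 member higher, lay near background, with 20.02, 27.3 and 4.29 in GV and 53.7, 173 and 86.1 in MI. Ribosomal protein genes have many processed copies, and the sources used here do not say how probe sets that match several were treated. The proteasome, by contrast, had 0 of 45 members past 2-fold with the stages apart in either direction and a median of 0.03, with Psmb6, a catalytic core subunit, at -0.89 (3280, 5026 and 2459 in GV, 1371, 2219 and 2073 in MI).

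The abundant oocyte-specific mRNAs differed by little between the stages. None of 13 zona pellucida and secreted factor genes, and none of 18 genes of the subcortical maternal complex and the oocyte Nlrp family, was past 2-fold with the stages apart, and the medians were -0.12 and -0.09. Zp2, a zona protein that binds sperm, read 6717, 8211 and 8120 in GV and 6224, 6294 and 5411 in MI, so the stages were apart by a small gap (change -0.36, interval -1.17 to 0.45). Gdf9, the growth factor by which oocytes act on cumulus cells, read 9077, 9193 and 8546 in GV and 8861, 8303 and 6653 in MI (change -0.18, interval -0.63 to 0.27), so a halving lies outside its interval. Nlrp5, also called Mater, a core protein of the subcortical complex, read 7396, 8857 and 8676 in GV and 5990, 5322 and 6105 in MI (change -0.51, interval -1.115 to 0.087). Oosp1, a secreted oocyte protein, was higher on each MI array, with 4229, 4545 and 3332 in GV and 5949, 6179 and 5096 in MI (change 0.51, interval 0.05 to 0.98). Among 16 oocyte transcription factors 1 (6.25%) was past 2-fold upward with the stages apart, beside 2.14% of all genes and 3.37% of those with clear signal. That member was the homeobox gene Obox5, with 1518, 1101 and 1699 in GV and 3456, 3465 and 2200 in MI (change 1.06, interval 0.46 to 1.66).

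Of 22 genes for fertilisation and egg activation, 3 (13.6%) were past 2-fold downward with the stages apart and 1 (4.55%) upward, beside 2.37% and 2.14% of all genes and 4.34% and 3.37% of those with clear signal. With an array left out the counts were 2 to 4 downward and 0 to 3 upward, while the median was 0.00 to 2 decimals. Izumo1r, the egg's receptor for sperm known as Juno, read 4210, 5155 and 5580 in GV and 1769, 2445 and 1857 in MI. Its change was -1.30 (SE 0.25, interval -1.87 to -0.72, adjusted p = 0.292), and its MII mean was 571. Camk2g, the isoform of calmodulin-dependent kinase that acts in egg activation, was lower at 2 probe sets, with changes of -1.42 (6075, 1298 and 1139 in GV, 928, 765 and 637 in MI) and -1.26 (664, 746 and 726 in GV, 455, 260 and 198 in MI). The second was the more even of the 2, since the first rested in part on 1 high GV array. Prkcd, a protein kinase C isoform, read 644, 233 and 412 in GV and 164, 91.4 and 117 in MI (change -1.59). Ppp3r1, the regulatory subunit of the calcium-dependent phosphatase calcineurin, read 202, 212 and 138 in GV and 379, 448 and 425 in MI (change 1.13, interval 0.49 to 1.77).

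Genes listed for the control of meiotic arrest by cAMP, phosphodiesterases among them, had a median of -0.33 over 21 genes with 16 below 0. Of the 21, 11 had a mean intensity of at least 100. The SD of the list's array medians within a stage was 0.43, larger than that change. The median change was -0.196 with a pseudocount of 64 and -0.075 with probe sets averaged. In each direction 1 gene (4.76%) was past 2-fold with the stages apart. The shares upward and downward were 2.14% and 2.37% of all genes, and 3.37% and 4.34% of those with clear signal. Prkaca, the catalytic subunit of protein kinase A, read 1786, 1561 and 1603 in GV and 819, 600 and 245 in MI (change -1.70, SE 0.40, interval -2.61 to -0.79, adjusted p = 0.395). Its other probe set read 609, 756 and 1095 in GV and 333, 493 and 772 in MI, a change of -0.64 with overlapping stages. Prkar2b, a regulatory subunit of the same kinase, read 69.7, 56.1 and 150 in GV and 227, 597 and 321 in MI (change 1.87) at its brightest probe set, but 2 others were lower in MI, at -0.71 and -1.39, so the array gave no single direction for this gene. The list also holds Gja1 and Npr2, which follicle cells express and which had changes of -1.48 and -0.41 with overlapping stages.

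The nuclear envelope and pore list had 3 of 39 members (7.69%) past 2-fold upward with the stages apart and 1 (2.56%) downward, beside 2.14% and 2.37% of all genes and 3.37% and 4.34% of those with clear signal. The count upward was 1 with a pseudocount of 64 or with probe sets averaged, and the median of 0.10 moved to 0.40 without MI 3. Lbr, the lamin B receptor of the inner nuclear membrane, was the brightest of these, with 713, 357 and 834 in GV and 1854, 1138 and 929 in MI (change 1.05). Seh1l, a subunit of the Y-shaped pore complex, read 93.0, 12.3 and 15.0 in GV and 120, 265 and 203 in MI (change 2.15), while a second probe set of like signal gave 0.41 with overlapping stages. Nupl2 lay near background (14.1 to 21.5 in GV, 38.9 to 83.2 in MI). Nup133, another subunit of the Y-shaped complex, read 403, 559 and 604 in GV and 311, 168 and 220 in MI (change -1.13), and a second probe set gave -0.67 with the stages apart. Of 27 genes of the meiotic chromosome axis and cohesin 1 (3.70%) was past 2-fold upward with the stages apart and 0 downward, near the 3.37% upward of genes with clear signal. It was Sycp2, a lateral element protein of the synaptonemal complex, with 265, 242 and 428 in GV and 1355, 2270 and 522 in MI (change 1.90). Smc1b, a cohesin subunit, had a change of -1.43 with overlapping stages.

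**Figure D4:**
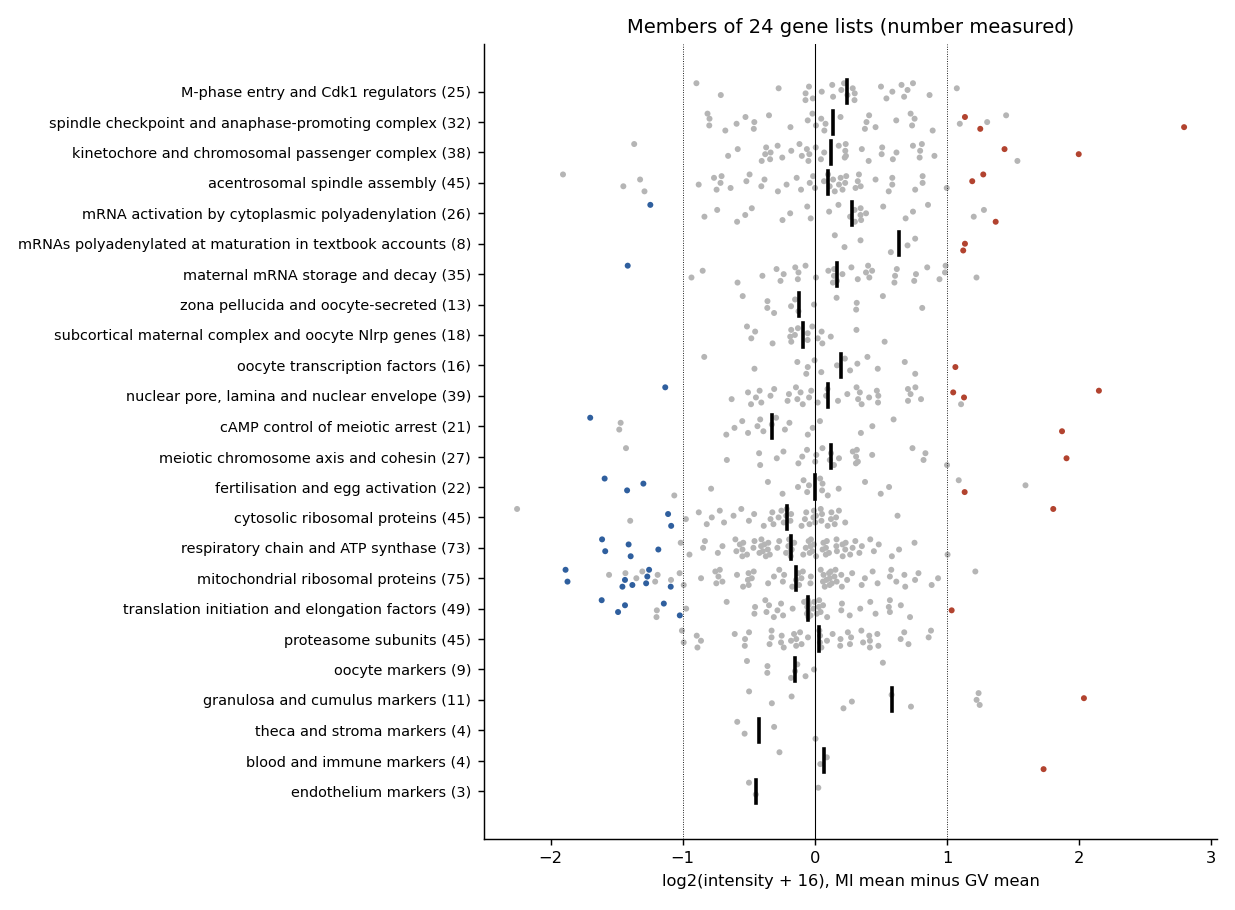
Points are the changes of the members of 24 gene lists (MI mean minus GV mean of log2(intensity + 16), number measured in brackets), with members past 2-fold and stages apart in red or blue and the list's median as a black bar. All 8 members of the list of mRNAs polyadenylated at maturation lie right of 0 (Plat at -0.0093 if probe sets are averaged). All lists were chosen with earlier results of these data known, and Dazl, Tpx2 and Tex19.1 were listed with those results in view. Red points outnumber blue ones in the lists of checkpoint, kinetochore and spindle. Blue ones outnumber red in the lists of mitochondrial ribosomes, respiration and translation factors.

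The largest differences with stages apart were mostly in genes of low or uneven signal. Ephx2, a soluble epoxide hydrolase, had the largest upward difference, from 1.47, 4.12 and 23.9 in GV to 226, 227 and 1619 in MI (change 4.25, interval 1.78 to 6.71, adjusted p = 0.443). Dmp1, known as a bone matrix protein, had the largest downward difference, from 553, 529 and 4157 to 46.3, 4.31 and 4.45 (change -5.20, interval -7.041 to -3.365, adjusted p = 0.194). A second Dmp1 probe set was lower as well (-3.23), but on GV 1 it read 19.7, below MI 1 at 49.6. Both have a suffix that marks probes shared between transcripts or open to cross-hybridisation. The third, with the plain suffix, lay near background, at a change of 0.08. Among the largest differences, the probe sets used for Ephx2, Irf3, S100a10, Cstf3, Anapc10 and Ncdn also lack the plain suffix. So do those for Nisch, Snrpb, Kctd14, Rpn2, Txn2 and Jup. Irf3, a transcription factor of the interferon response, rested largely on 1 array, with 45.3, 91.1 and 38.5 in GV and 4577, 244 and 310 in MI (change 3.36). So did Ncdn, a neuronal protein, at 2639 on MI 1 against 129 and 60.8 on the other MI arrays (interval -0.54 to 6.05). The other large upward differences were those of Rnf180, Tbccd1, S100a10, Rbl1, Wdr44, Cstf3, Gna13 and Alx1, with changes of 2.73 to 3.24, together with Anapc10 above. A second Tbccd1 probe set gave 0.78 with overlapping stages. Rbl1 and S100a10 each had a dimmer probe set higher with the stages apart (2.07 and 1.74). The other probe sets of Rnf180, Wdr44, Cstf3 and Alx1 lay near background, at -0.22, -0.21, -0.03 and 0.01.

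Cstf3, a subunit of the cleavage stimulation factor that acts in mRNA 3′ end formation, stood out among these for its even arrays. It read 30.4, 53.7 and 32.5 in GV and 304, 469 and 414 in MI, a change of 2.91 (SE 0.36, interval 2.09 to 3.73), and its adjusted p of 0.178 equals the smallest of any gene. Its MII mean was 68.0. Rbl1, the pocket protein p107, read 47.8, 5.46 and 11.1 in GV and 114, 203 and 593 in MI (change 2.96). For Gna13, a G protein subunit, 6 other probe sets were given, and their changes ran from -0.98 to 1.22, so its value of 2.73 held for the brightest probe set alone.

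Among the largest downward differences, Snrpb, a core protein of the spliceosome, read 1609, 3621 and 280 in GV and 88.6, 41.2 and 102 in MI (change -3.76, interval -5.63 to -1.89), and a second probe set was high on GV 2 only. Aspscr1, a regulator of glucose transporter traffic, was even in GV and uneven in MI, with 3016, 4000 and 3967 against 332, 1240 and 54.1 (change -3.54). Synpo, an actin-binding protein, was the most even of the 12, with 181, 171 and 177 in GV and 12.7, 5.32 and 3.71 in MI (change -3.07, interval -4.21 to -1.92). Its other probe set went the other way, from 4.32, 11.8 and 1.84 to 273, 21.3 and 25.3, so the sign of Synpo depends on the probe set. Rpn2, of the enzyme complex that attaches sugars to new proteins in the endoplasmic reticulum, read 850, 465 and 1799 in GV and 121, 76.3 and 109 in MI (change -2.97). Nisch, Snx5, Kctd14, Trnp1, Jup and Slc34a1 had changes of -4.27 to -2.90, and their GV arrays spread over more than 2-fold.

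Probe sets of a gene agreed more often where the change was large. Probe sets of a gene bind different stretches of its transcripts and share the same arrays, so they check the probe, not the sample. Among genes whose brightest probe set had a mean of at least 100, 4358 other probe sets of 2887 genes also reached 100. Of these, 68.9% had the sign of the brightest (95% exact binomial interval 67.5% to 70.3%, which covers counting error only). The share was 64.2% of 2602 where the brightest moved by less than 0.5 log2 units, 73.0% of 1161 at 0.5 to 1, 80.7% of 529 at 1 to 2 and 87.9% of 66 at 2 or more. Across these pairs Pearson's r of the 2 changes was 0.47 and Spearman's rho 0.46, a description across probe sets that are not independent. The second probe set also gave a smaller size: where the brightest moved by 1 to 2, its median change was 1.25 and that of the others, taken in its direction, 0.77.

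Separation of the stages did not clearly add to size. Where the brightest probe set was past 2-fold with the stages apart, 82.0% of 133 other probe sets shared the sign of a higher gene and 87.3% of 166 that of a lower one. Where it was past 2-fold with overlapping stages, 78.0% of 296 did. The 95% exact intervals were 74.4% to 88.1%, 81.3% to 92.0% and 72.9% to 82.6%, so each overlaps the next. By kind of probe set, for changes of at least 2-fold, the sign was shared by 76.7% of 193 pairs in which both probe sets had the plain suffix of a probe set unique to 1 transcript, and by 83.8% of 402 pairs in which at least 1 had a suffix that marks probes shared between transcripts or open to cross-hybridisation. The intervals of these shares, 70.1% to 82.5% and 79.9% to 87.3%, overlap. Some pairs of the latter kind share probes or target nearly the same stretch, as for Ackr4, where 2 of them read alike on all 6 arrays.

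**Figure D5:**
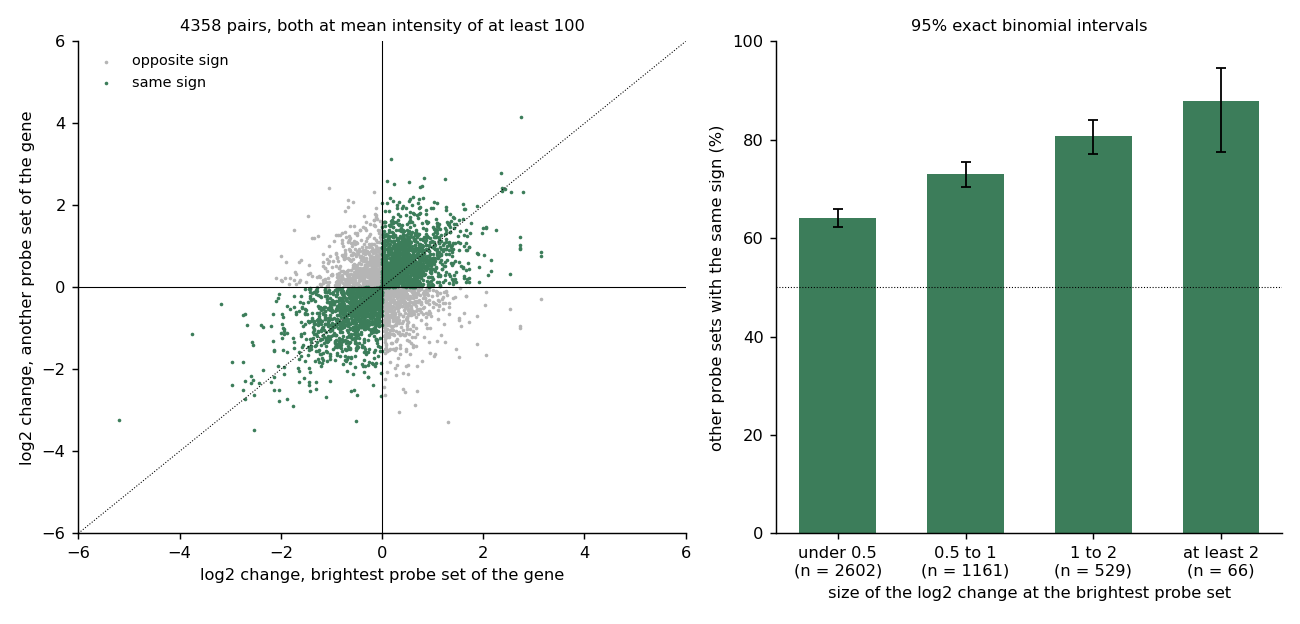
Left, each of 4358 points compares the log2 change of another probe set with that of the brightest probe set of the same gene, both with a mean intensity of at least 100; the dotted line marks equal change. Right, bars give the percentage of other probe sets that share the sign of the brightest, by the size of its change, with 95% exact binomial intervals and a dotted line at 50%: 64.2%, 73.0%, 80.7% and 87.9% from the smallest to the largest.

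Of 2890 genes with 2 or more probe sets at a mean of at least 100, 60 (2.08%) had all of these at least 2-fold higher in MI and 80 (2.77%) all at least 2-fold lower, while 24 had probe sets past 2-fold in opposite directions. In 19 of the 60 and 25 of the 80, every such probe set also had the stages apart. Mitd1, a protein that acts at the close of cell division, was of this kind. It read 79.3, 45.6 and 26.1 in GV and 203, 501 and 276 in MI (change 2.36, SE 0.40, interval 1.44 to 3.27, adjusted p = 0.194), and its other probe set 40.0, 31.5 and 25.6 in GV and 387, 349 and 234 in MI (change 2.79). Odf2l, a centriole-associated protein, read 28.3, 97.8 and 73.5 in GV and 220, 219 and 217 in MI (change 1.61), with 1.92 at the other. For Anapc10 the second probe set read 219, 116 and 41.8 in GV and 422, 915 and 545 in MI, a change of 2.33 beside 2.79.

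Other genes of the group higher at all their probe sets of mean at least 100 show why 2 probe sets do not stand for replicates. Ackr4, a scavenging chemokine receptor, read 522, 155 and 348 in GV and 4103, 3139 and 390 in MI, and its second probe set 463, 131 and 345 in GV and 3706, 2847 and 336 in MI. Both thus gave the same overlap, with MI 3 inside the GV range. Nupr1, a stress-induced nuclear protein, was high on MI 2 and MI 3 but not on MI 1 at its brightest probe set (28.8, 397 and 568), and Afp, the fetal serum protein alpha-fetoprotein, read 205 on GV 1 and 87.2 on MI 3. Rap2c, a small GTPase, Tmcc1, a membrane protein of the endoplasmic reticulum, and Tctex1d2, a dynein light chain, had changes of 2.56, 1.87 and 1.59, the last 2 with overlapping stages.

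On the lower side, Txn2, the mitochondrial thioredoxin, was lower at 3 probe sets, all with the stages apart. The brightest read 4146, 1913 and 1041 in GV and 214, 218 and 318 in MI (change -2.96, SE 0.46, interval -4.015 to -1.906, adjusted p = 0.194), and the others gave -2.38 and -1.82. Stx8, a SNARE protein of endosomes, read 873, 871 and 637 in GV and 324, 181 and 19.5 in MI (change -2.58), and 342, 452 and 533 against 124, 21.2 and 122 at another probe set (change -2.33). Prelid1, which carries lipid between mitochondrial membranes, was lower at 3 probe sets with the stages apart, at -2.53, -2.64 and -3.49. Coro7, a Golgi protein of the coronin family, read 265, 125 and 551 in GV and 33.7, 29.3 and 29.98 in MI (change -2.59), and Cbfa2t2, a transcriptional corepressor, had a change of -2.35. Hadh, an enzyme of fatty acid oxidation, showed the opposite case. Its 2 bright probe sets both read high on GV 2 alone (7969 and 5998, against 34.8 to 220 on the other GV arrays), the stages overlapped, and the remaining probe set gave 0.22. For Krtcap2, Eef1akmt1 and Ift27, with changes of -1.93 to -2.75, the stages overlapped at the brightest probe set, as they did for Prdx4, an antioxidant enzyme, at -2.03.

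In 6 genes bright probe sets disagreed most. Ptdss2, an enzyme of phosphatidylserine synthesis, read 499, 148 and 127 in GV and 2806, 2953 and 5.41 in MI at its brightest (change 1.30), and 302, 101.04 and 252 against 11.9, 5.60 and 2.05 at another (change -3.28). Ago3, an Argonaute protein of small RNA silencing, had 1.51 at the brightest and -1.71 at a probe set with a higher mean over these 6 arrays. Eya3, a phosphatase and coactivator, had 0.53, -1.31 and 2.58 at 3 probe sets, and Cog8, of a Golgi tethering complex, 2.05, -0.11 and -1.64. Larp1b, an RNA-binding protein of the La-related family, had -1.04 and 2.42, and Prkar2b was described above. For these genes the data give no direction.

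Among the 407 genes with a mean of 3000 or more, 3 were past 2-fold upward with the stages apart and 9 downward (0.74% and 2.21%). Besides Izumo1r, Rps20 and Rpl4, the following were named after their values were seen. Chchd10, a protein of the mitochondrial intermembrane space, read 6082, 6608 and 4813 in GV and 1474, 2273 and 1464 in MI (change -1.76, interval -3.039 to -0.475, adjusted p = 0.56). Hmgb2, a chromatin protein, was higher, with 1615, 2101 and 2807 in GV and 3227, 3810 and 7733 in MI (change 1.10). Tubb3, a beta-tubulin, read 1777, 1086 and 3692 in GV and 4215, 4079 and 3747 in MI (change 1.05), so that the nearest arrays of the stages, GV 3 and MI 3, were almost level. Bud31, a splicing factor, and Ptcd1, a mitochondrial RNA-binding protein, entered this group mainly through MI 3, where they read 752 and 484 against 5148 and 7775, and 2889 and 4288, on the other MI arrays.

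Markers of follicle cells moved in part with the stages, and their share in the values above was not tested. Of 11 granulosa and cumulus markers 8 lay above 0 and the median change was 0.58. Tnfaip6, a hyaluronan-binding protein made by cumulus cells after hCG, read 2.44, 4.86 and 4.00 in GV and 75.9, 77.4 and 45.8 in MI, a change of 2.04 (interval 1.26 to 2.81, adjusted p = 0.194). Ptx3, Ptgs2 and Has2, which hCG likewise induces in cumulus cells, had changes of 1.25, 1.22 and 0.73 with overlapping stages. The other 7 ranged from -0.50 for Inha to 1.24 for Inhba, with Kitl at 0.58, Fshr at 0.28, Nr5a2 at 0.22, Foxl2 at -0.18 and Amh at -0.33. Cd68, a macrophage marker, was also higher, with 4.87, 8.32 and 6.48 in GV and 42.1, 43.8 and 104 in MI (change 1.73). It is 1 of 4 blood and immune markers, whose median change was 0.07 and lowest change -0.27. In 1 of the 4 all MI arrays lay below all GV arrays. Neither Tnfaip6 nor Cd68 read above 104 on any of the 6 arrays.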

How the data were processed

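Polysome-bound mRNA from 3 GV, 3 MI and 3 MII samples was reverse-transcribed, linearly amplified and hybridised to Affymetrix Mouse Genome 430 arrays, per the labels' protocols. The authors deposited 1 table of linear intensity values per probe set and array (summarisation, background correction and scaling: not given in the sources used here). Beside these values the table has no detection calls and 0 columns beyond the 9 arrays.

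Of 45101 probe sets, 64 controls were left out, and 34945 had 1 symbol in the platform annotation, 932 several and 9160 none. The one-symbol probe set with the highest mean of log2(intensity + 16) over the 9 arrays stood for each of 18193 genes, of which 9010 had more than 1. RefSeq (GRCm38.p6) held 18032 of these symbols. limma 3.58.1 in R 4.3.3 fitted the 3 stage means over all 9 arrays, without a filter on low signal, and the contrast MI minus GV was tested two-sided with Benjamini-Hochberg adjustment over all genes at 0.05. Standard errors and 95% intervals come from this fit. "Stages apart" means that the 3 arrays of a stage all lie beyond the 3 of the other. The script was tested on simulated data. The number of arrays limits the precision.

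Genes were named by a rule. It took the 12 largest differences in each direction with the stages apart and a mean of at least 100 in the higher stage. It took the 10 genes in each direction with the largest move at all of their probe sets of mean at least 100. To these came the 6 with the widest opposed probe sets, up to 4 members of each of 24 lists, and a panel of 18 genes. Of the panel, Ccnb1 had no one-symbol probe set. Predicted and unnamed genes were skipped. Members of the lists, the lists and the rule were chosen with earlier results of these data known. Members given in passing by list are outside this rule. No genome build is named in the array files, so no coordinates or sequences are given. Alternatives covered the pseudocount, scaling, signal filter, choice of probe set, model and each array left out.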

Additional observations from a re-analysis of the deposited data

How the results depend on the processing

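No gene was called under any of the 23 other settings tried, and the smallest adjusted p of limma ranged from 0.0506 (without MII 1) to 0.318 (without MII 3), with 0.0579 at a pseudocount of 64 and 0.101 where all probe sets of a gene were averaged. Deviations from the stage means of same-numbered GV and MI arrays correlated at 0.20, 0.0093 and 0.23. These values do not settle whether the replicate numbers pair the arrays, since differently numbered arrays were not set beside them in this way. With the replicate number as a block 0 genes were called (smallest adjusted p 0.308). The count of genes past 2-fold with the stages apart was 660 higher and 689 lower with a pseudocount of 1, 239 higher with one of 64, and 66 and 65 at 4-fold. With an array left out it was 552 to 914 higher and 567 to 827 lower, since 2 arrays clear 3 more easily than 3 do. Shares of probe sets that agree in sign, for changes under 0.5, of 0.5 to 1 and of 1 to 2, were 62.2%, 69.8% and 76.7% with a signal minimum of 50, and 68.8%, 77.8% and 86.9% with one of 300. With plain-suffix pairs only, chosen after seeing the data, they were 57.8% under 0.5 and 76.5% at 1 to 2. With an array left out they ran from 60.7% to 65.7%, 66.3% to 77.6% and 75.2% to 80.9%, and for changes of at least 2 from 79.8% to 88.9%. Of 322 values of list medians, 318 stayed within the spread between arrays; the granulosa and cumulus median was 1.48 with a pseudocount of 1. With an array left out it was 0.202 to 0.736, the nuclear pore median -0.063 to 0.402 and the endothelial median -0.851 to 0.154. Of 105 named genes, 11 changed sign under at least 1 setting. Where all probe sets of a gene were averaged, the change was -0.52 for Ptdss2, 0.69 for Larp1b, -0.075 for Prkar2b and -0.0093 for Plat. With the probe set brightest over the 6 arrays it was -0.98 for Gna13, -1.31 for Eya3 and -1.71 for Ago3, and with the brightest by linear mean, chosen after seeing the data, -0.11 for Cog8. For Ccnb2 it was 0.087 with array weights and -0.468 to 0.280 with an array left out, for Cdk1 -0.178 to 0.625, and for Kdr -0.970 to 0.132. The cause of these shifts was not tested.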

Other observations

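The genes with the smallest p, chosen after their values were seen, included some with low signal and even arrays. Cyp2f2, a cytochrome P450, read 183, 123 and 192 in GV and 26.9, 9.84 and 10 in MI (log2 change -2.54, adjusted p = 0.178). Akr1c14, a hydroxysteroid dehydrogenase, read 127, 115 and 125 in GV and 28.3, 31.8 and 12.04 in MI (-1.83, adjusted p = 0.194). Cmpk1, a nucleotide kinase, read 298, 203 and 197 in GV and 946, 1200 and 1546 in MI (2.32, adjusted p = 0.178). Mob4, a subunit of the STRIPAK phosphatase complex, read 538, 365 and 340 in GV and 1233, 1367 and 1264 in MI (1.63, adjusted p = 0.194). Cryga, a lens crystallin, read 4.02, 2.35 and 4.50 in GV and 42.1, 41.1 and 61.6 in MI, near background throughout (1.70, adjusted p = 0.178). In each of these 5 genes every MI array lay beyond every GV array.

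Probe sets without a gene symbol were left out of the comparison of genes. Of 9160, 604 had a mean intensity of at least 100, and 38 of these (6.29%) were at least 2-fold higher in MI with the stages apart and 22 (3.64%) lower, beside 3.37% and 4.34% of genes with clear signal. Of 405 clearly lit probe sets with several symbols, 11 (2.72%) were higher and 19 (4.69%) lower.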
